A study of Sus scrofa with 19 samples.

Results

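The genes described here are 10 genes of the basement membrane: the laminin chains LAMA2, LAMA4, LAMA5, LAMB1, LAMB2 and LAMC1, the nidogens NID1 and NID2, and the heparan sulfate proteoglycans HSPG2 (perlecan) and AGRN (agrin). They were chosen by name from the 25879 genes of the count files. 9 of the 10 symbols were found in the table of transformed expression that the authors deposited, and LAMA5, whose row there has no symbol, was matched by its Ensembl identifier ENSSSCG00000032761 with a table of gene names. All 10 had counts in all 19 libraries and passed the filter on low counts.

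The basement membrane is a thin sheet of matrix that surrounds each cardiomyocyte, smooth muscle cell and capillary. Laminins, which are trimers of an α, a β and a γ chain, polymerize on the cell surface and bind integrins and dystroglycan, type IV collagen forms a network of its own, and nidogens and perlecan connect both networks. Loss of the α2 chain causes muscular dystrophy in humans, while the α4 and α5 chains are best known from vessel walls.

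RNA-seq was performed on left ventricular myocardium of 19 pigs, with 1 library per pig, to compare models of myocardial fibrosis. The animals are described as female large whites. The DOX group (n = 5) received doxorubicin and the MYO group (n = 5) received Myocet, a liposomal form of doxorubicin, at 60 mg/m2 in each of 3 cycles, and anterior wall was collected after 3 months. In the RemoLV group (n = 3), the left anterior descending coronary artery was occluded for 90 min and reperfused, and posterior wall remote from the infarct was collected after 6 months. In the Hyper group (n = 3), a stent of 9 mm in the descending aorta became a stenosis as the juvenile pigs grew, and anterior wall was collected after 6 months. The Control group (n = 3, anterior wall, listed with a follow-up of 6 months) is called sham-operated in the sample records and untreated in the study's methods. The DOX and MYO data were taken by the study from earlier work, so that the source of the libraries, the time of sampling and the treatment cannot be told apart for these 10 libraries.

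The files carry a conflict that bears on every comparison with Control. When the 19 columns of expression in that table were set against the count files, each had 1 file with an identical order of genes (Spearman correlation 1.0) and no second file above 0.992, and for 8 of the 19 that file carried the name of another group. The 3 columns called Control match the count files called RemoLV and the reverse, and DOX replicate 5 and MYO replicate 1 are exchanged. The name of the count file (file label) set the group of a library, and each comparison was also made with the column name in the table (table name). Which naming is right was not tested. By file label, edgeR called 0 genes in Hyper against Control (1124 and 1294 in the 2 directions at an unadjusted p under 0.05), and 2300 higher and 2518 lower in RemoLV against Hyper. By table name it called 2528 higher and 2328 lower in Hyper against Control and 0 in RemoLV against Hyper (1312 and 1153 at an unadjusted p under 0.05), comparisons in which the same libraries have changed places. The comparison of DOX and MYO together with Hyper is the one that the exchanges leave with the same libraries on each side.

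The libraries held between 9527710 and 20370209 counts on genes. The 3 libraries labelled RemoLV stood apart: the summed CPM (counts scaled to a common library size by edgeR's TMM method) of 7 atrial cardiomyocyte markers was 9585 to 12920 there, 149 to 232 in Control, 312 to 1312 in Hyper, 1169 to 2466 in DOX and 842 to 1305 in MYO, and that of 5 ventricular markers was 25020 to 29130 against 44970 to 74540 in the 16 other libraries. All DOX and MYO libraries were thus above Control in the atrial sum by file label. Of the 6 markers tested, 2 were called higher in each, beside 21% and 20.7% of all genes. Their median log2 fold changes were 0.226 in DOX and 0.059 in MYO. Under the table names all 6 were lower than Control in each, with medians of -1.834 and -2.224. MYL2, the regulatory light chain of the ventricle, stood at 58.0 ± 50.8 CPM (SD, n = 3) in RemoLV and at 15850 ± 2250 (SD, n = 3) in Control, although both are described as left ventricular myocardium. BMP10, a secreted factor of the atrium, was at or near 0 in all groups. The summed CPM of 4 Y-chromosome genes was 201 ± 29.1 (SD, n = 5) in DOX and 180 ± 4.84 (SD, n = 5) in MYO and at most 0.226 in the other libraries, which goes against the description of all animals as female. The treatment and this Y-chromosome signal therefore cannot be told apart where DOX or MYO is compared with Control, Hyper or RemoLV. The part of these differences in the results was not tested.

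Markers of the cells that make basement membranes also differed between groups. The summed CPM of 8 fibroblast markers ranged from 2175 to 3557 in Control, from 4868 to 7251 in DOX, from 4709 to 6737 in MYO, from 1646 to 3974 in Hyper and from 10910 to 12560 in RemoLV, and none of the 8 was at 0 in any group. For 9 endothelial markers the ranges were 898 to 1076 in Control, 863 to 1180 in DOX, 1082 to 1118 in MYO, 890 to 1015 in Hyper and 779 to 852 in RemoLV, with EGFL7 at 0 in all groups. For 8 markers of smooth muscle and pericytes the means lay between 914 ± 148 (SD, n = 3) in RemoLV and 1026 ± 28.2 (SD, n = 3) in Control. The fibroblast sums of Hyper and Control overlapped and those of DOX and MYO were above both, but the single markers did not all follow the sum. By file label edgeR called 3 of the 8 higher for DOX against Control with none lower (median log2 fold change 0.42), 3 higher and 1 lower for MYO (median 0.10) and 5 higher for RemoLV with none lower. Table names gave none higher, with 5 lower for DOX, 6 for MYO, 5 for RemoLV and 6 for Hyper. The endothelial sum of MYO was above Hyper and Control, that of DOX overlapped both, and the smooth muscle sums overlapped between all groups. The libraries labelled RemoLV also stood apart in the sum of 5 adipocyte markers (60.6 to 154.5 CPM against at most 46.97 elsewhere) and of 2 mesothelial markers (0.178 to 2.11 against at least 6.87), and their mean for 4 Schwann cell markers was 25.5 ± 11.7 (SD, n = 3) against 10.4 to 13.9 in the other groups. In bulk tissue, fewer cells of a type and less RNA per cell cannot be told apart, and the part of cell composition in the results below was not tested.

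**Figure D1:**
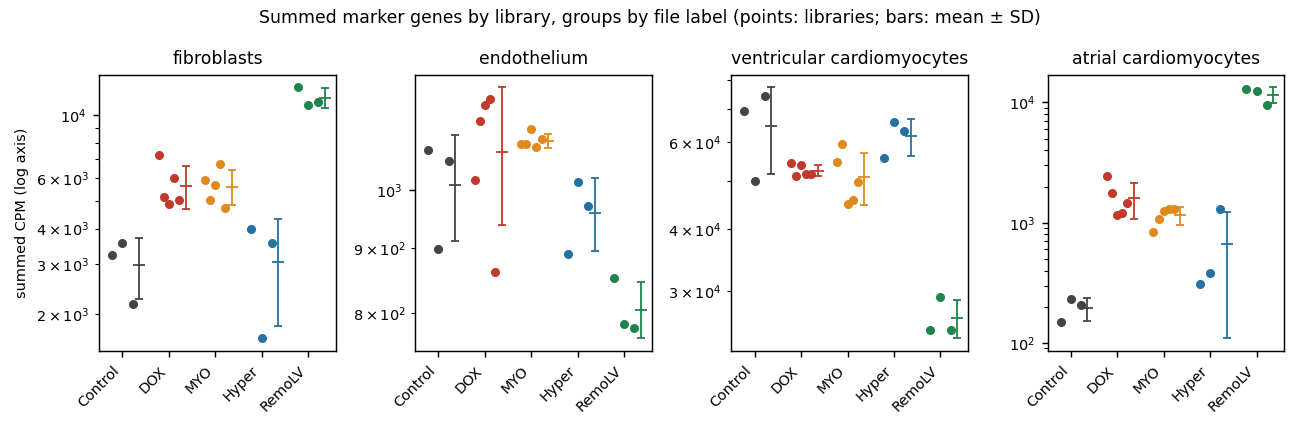
Summed CPM (vertical log axis) of the marker genes of fibroblasts, endothelium, ventricular and atrial cardiomyocytes in each library (points) by file label, with the mean ± SD beside them. The RemoLV libraries are highest in fibroblast markers (10910 to 12560) and atrial markers and lowest in ventricular markers.

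Of the 10 genes, 6 were higher and 1 was lower in DOX than in Control by file label, at an adjusted p of at most 0.05 in edgeR's quasi-likelihood test (Benjamini-Hochberg adjustment over 13552 genes). Among all genes tested, 21% were higher and 21.1% lower in this comparison. The same 6 genes (AGRN, HSPG2, LAMA4, LAMB1, LAMB2 and NID1) were higher in MYO than in Control and the same gene, LAMA2, was lower, against 20.7% and 21.7% of all genes. In RemoLV against Control, 4 were higher and 1 was lower (all genes 23.1% and 24%). In Hyper against Control none was called by edgeR in either direction, and neither was any other gene (0%). At an unadjusted p under 0.05, 1 of the 10 was higher (NID1) and 1 lower (LAMA2) in Hyper, against 8.29% and 9.55% of all genes, and DESeq2 called LAMA2 lower, beside 0.571% of all 19275 genes with a DESeq2 p higher and 1.07% lower. DOX and MYO together had 5 higher and 0 lower than Hyper (all genes 15.8% and 16.9%), and RemoLV had 5 higher and 1 lower than Hyper (all genes 17% and 18.6%). DOX and MYO did not differ in any of the 10 by edgeR or DESeq2 (edgeR 0% of all genes), nor at an unadjusted p under 0.05 (3.95% of all genes higher and 3.14% lower in DOX). No change reached the study's fold threshold, an absolute log2 fold change of 2. The median log2 fold change of the 10 was 0.46 in DOX and 0.43 in MYO against Control, beside medians of 0.03 and 0.02 over all genes. The table names gave medians of -0.009 and 0.044, beside 0.015 and 0.006 over all genes.

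With table names the picture against Control changed. In DOX, 3 of the 10 were higher (AGRN, LAMA5 and NID2; all genes 15%) and 2 lower (LAMA2 and NID1; all genes 14.6%), and in MYO the same genes were called (all genes 14.8% and 14.4%). In RemoLV, 1 was higher and 4 were lower (all genes 24% and 23.2%), and in Hyper 1 was higher (LAMA5) and 5 were lower (HSPG2, LAMA4, LAMB1, LAMB2 and NID1; all genes 18.7% and 17.2%). In DOX and in MYO against Control, AGRN (higher) and LAMA2 (lower) were thus the genes of the 10 called in the same direction under both namings. For DOX and MYO against Hyper, the same 5 genes (AGRN, HSPG2, LAMA4, LAMB1 and NID2) were higher. The libraries on each side do not change there, so this agreement is no test of the naming.

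**Figure D2:**
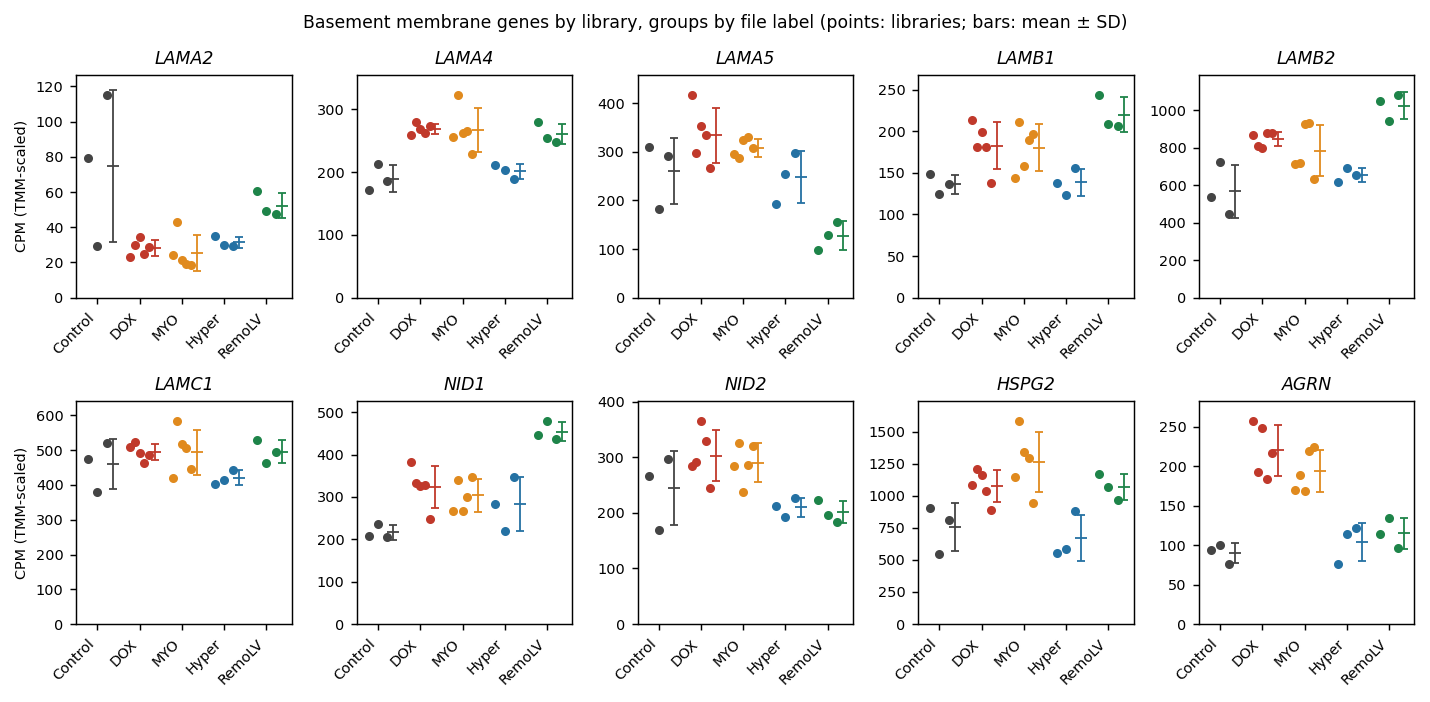
CPM of each gene in each library (points) by file label, with the mean ± SD beside them. AGRN in the 10 DOX and MYO libraries (168.9 to 256.9) lies above all 9 others (75.39 to 134.5), and NID1 and LAMB2 are highest and LAMA5 lowest in RemoLV.

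Expressed per kb of the longest RefSeq transcript, the median level over the 19 libraries was highest for LAMB2 at 141 CPM per kb, followed by HSPG2 at 70.04, LAMC1 at 64.0, NID1 at 54.3, NID2 at 50.3, LAMA4 at 42.0, LAMB1 at 26.7, LAMA5 at 25.7 and AGRN at 22.6. The ranges of all neighbours in this order overlapped, and the order of the group means was not the same in every group. By file label, LAMC1 was above HSPG2 in Control (60.6 ± 9.51 against 50.9 ± 12.6 CPM per kb, SD, n = 3) and in Hyper, NID1 was above HSPG2 in Hyper and RemoLV and above LAMC1 in RemoLV, and NID2 was above NID1 in Control, DOX and MYO. LAMA4 was above NID2 in RemoLV, LAMA5 was above LAMB1 in every group but RemoLV, and AGRN was above LAMA5 in RemoLV (15.35 ± 2.59 against 11.12 ± 2.58, SD, n = 3) and above LAMA5 and LAMB1 in DOX. These differences were not tested. These lengths are those of RefSeq, while the authors counted on Ensembl models. LAMA2 is left out of the order because the extent of the model on which it was counted (ENSSSCG00000033894) is not given in the sources used here.

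The promoters of 4 of the genes are shown, because HSPG2 was higher in DOX and MYO than in Hyper, LAMB1 and NID1 had the highest correlation across libraries of any pair of the 10, and LAMA5 went the other way in RemoLV. Each is the stretch of 250 bases before the annotated RefSeq gene start (assembly Sscrofa11.1), 5′ to 3′ on the strand of the gene, and capitals mark GC boxes (GGGCGG or its reverse complement CCGCCC, overlaps counted).
HSPG2, chr6:79958284-79958533, minus strand: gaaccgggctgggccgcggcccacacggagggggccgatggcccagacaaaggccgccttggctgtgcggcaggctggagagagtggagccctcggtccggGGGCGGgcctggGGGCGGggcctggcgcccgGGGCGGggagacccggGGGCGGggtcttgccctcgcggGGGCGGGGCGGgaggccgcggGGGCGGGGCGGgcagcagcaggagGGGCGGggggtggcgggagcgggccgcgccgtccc
LAMA5, chr17:61747796-61748045, minus strand: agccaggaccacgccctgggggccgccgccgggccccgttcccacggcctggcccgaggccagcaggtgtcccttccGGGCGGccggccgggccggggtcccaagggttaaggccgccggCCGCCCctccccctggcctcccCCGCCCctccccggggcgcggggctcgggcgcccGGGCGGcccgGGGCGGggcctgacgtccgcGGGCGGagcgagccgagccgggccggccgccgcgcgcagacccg
LAMB1, chr9:107747243-107747492, minus strand: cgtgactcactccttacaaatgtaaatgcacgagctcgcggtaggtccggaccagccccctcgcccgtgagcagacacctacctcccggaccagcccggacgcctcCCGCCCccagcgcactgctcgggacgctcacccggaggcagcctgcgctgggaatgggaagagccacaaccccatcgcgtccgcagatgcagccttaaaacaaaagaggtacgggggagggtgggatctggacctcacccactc
NID1, chr14:55239077-55239326, plus strand: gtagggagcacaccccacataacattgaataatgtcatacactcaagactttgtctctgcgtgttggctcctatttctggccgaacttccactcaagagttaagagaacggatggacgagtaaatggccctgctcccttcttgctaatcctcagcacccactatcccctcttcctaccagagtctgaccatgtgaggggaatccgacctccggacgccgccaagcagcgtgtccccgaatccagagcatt

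HSPG2 held 9 GC boxes, LAMA5 6 and LAMB1 1, and NID1 held none. At least 1 GC box was found in 45.9% of the 19556 promoters of protein-coding genes of the same length. The GC content was 83.2% in HSPG2, 85.6% in LAMA5, 64.8% in LAMB1 and 52.4% in NID1, beside a median of 57.6%. Neither CCAAT (31.9% of all promoters, both strands) nor TATAAA (9.77%, both strands) was present in any of the 4.

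Among the α chains, LAMA2 (RefSeq chr1:33765412-34359741, minus strand) encodes the chain of muscle cell basement membranes. Its CPM was 79.2, 29.4 and 115.2 in Control, 23.0, 29.8, 34.5, 24.9 and 28.6 in DOX, 24.5, 43.2, 21.5, 19.0 and 18.7 in MYO, 35.2, 30.2 and 29.2 in Hyper and 60.4, 49.0 and 47.5 in RemoLV. Control replicate 2 lay among the DOX libraries, while Control replicates 1 and 3 were above all other libraries. LAMA2 was 2.65-fold lower in DOX (log2 fold change -1.41 ± 0.31, SE, adjusted p = 0.00156, edgeR) and 2.93-fold lower in MYO (-1.55 ± 0.31, adjusted p = 0.000712, edgeR) than in Control. The log2 fold change stayed between -1.79 and -0.95 in DOX and between -1.94 and -1.09 in MYO when any 1 library was left out. With table names it was -0.94 ± 0.31 in DOX (adjusted p = 0.0299, edgeR) and -0.99 ± 0.31 in MYO (adjusted p = 0.0225, edgeR), in both cases without overlap. In Hyper the log2 fold change against Control was -1.24 ± 0.36 (adjusted p = 0.137, edgeR). In RemoLV it was -0.51 ± 0.35 (adjusted p = 0.238, edgeR), and 0.51 ± 0.35 with table names (adjusted p = 0.241). Both values depended on single Control libraries. Without Control replicate 2, LAMA2 was called in Hyper (-1.63, adjusted p = 0.00118) and in RemoLV (-0.90, adjusted p = 0.0108), and without Control replicate 3 the values were -0.78 (adjusted p = 0.734) and -0.055 (adjusted p = 0.915, all edgeR). Against Hyper, LAMA2 in DOX and MYO differed by -0.24 ± 0.28 (adjusted p = 0.547, edgeR).

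LAMA4 (chr1:78071990-78224564, minus strand), the α chain of endothelial basement membranes, stood at 170.7, 212.3 and 185.3 CPM in Control and at 211.1, 203.0 and 188.9 in Hyper. It stood at 258.5, 279.0, 268.2, 261.8 and 273.4 in DOX, at 255.6, 323.0, 262.9, 265.8 and 228.6 in MYO and at 279.7, 253.6 and 248.6 in RemoLV. All 13 libraries labelled DOX, MYO or RemoLV were above the 6 labelled Control or Hyper. The log2 fold change against Control was 0.50 ± 0.10 in DOX (adjusted p = 0.00099), 0.50 ± 0.10 in MYO (adjusted p = 0.00105) and 0.46 ± 0.11 in RemoLV (adjusted p = 0.00295, all edgeR). Against Hyper it was 0.41 ± 0.09 in DOX and MYO (adjusted p = 0.00279, edgeR), and it remained called without any 1 library (highest adjusted p 0.0176). With table names DOX and MYO differed from Control by 0.02 ± 0.10 and 0.06 ± 0.10, neither of them called, and LAMA4 was lower in RemoLV and Hyper than in Control.

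LAMA5 (chr17:61698370-61747795, minus strand), the broadly expressed α chain of mature vessels and epithelia, had 97.3, 128.7 and 156.4 CPM in RemoLV and 309.0, 182.8 and 291.5 in Control. The 3 RemoLV libraries were below all 16 others, of which the lowest was Control replicate 2. LAMA5 was 2.05-fold lower in RemoLV than in Control (log2 fold change -1.03 ± 0.21, adjusted p = 0.000591, edgeR) and 1.95-fold lower than in Hyper (adjusted p = 0.00151, edgeR), where it stood at 192.6, 254.7 and 298.4 CPM. DOX had 417.3, 297.3, 353.6, 333.7 and 267.3 CPM and MYO 294.8, 286.6, 324.7, 330.2 and 307.4, which overlapped Control. The log2 fold changes of 0.36 ± 0.19 in DOX (adjusted p = 0.133) and 0.24 ± 0.19 in MYO (adjusted p = 0.306, both edgeR) were not called. With table names, where the libraries low in LAMA5 carry the name Control, the log2 fold change was 1.41 ± 0.19 for DOX, 1.25 ± 0.19 for MYO, 1.03 ± 0.21 for RemoLV and 0.96 ± 0.21 for Hyper (highest adjusted p 0.00131, edgeR).

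The β chains LAMB1 (chr9:107670120-107747242, minus strand) and LAMB2 (chr13:31738282-31750623, minus strand), of which LAMB2 is the chain of adult muscle and the neuromuscular junction, both had their highest mean in RemoLV. LAMB2 had 1048, 942.7 and 1081 CPM in RemoLV, 536.3, 720.8 and 444.7 in Control and 616.6, 690.8 and 652.5 in Hyper. In DOX it had 864.8, 808.9, 797.7, 876.6 and 876.1 CPM and in MYO 710.1, 717.0, 923.4, 928.5 and 630.5. RemoLV and DOX were above all Control libraries, while MYO overlapped Control through Control replicate 2. The log2 fold change against Control was 0.85 ± 0.16 in RemoLV (adjusted p = 0.000345), 0.57 ± 0.15 in DOX (adjusted p = 0.00448) and 0.46 ± 0.15 in MYO (adjusted p = 0.0158, all edgeR). The call in MYO was lost without Control replicate 1 or 3 (adjusted p = 0.0621 and 0.123) or with only both groups in the fit (adjusted p = 0.0819).

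LAMB1 ranged from 206.4 to 243.8 CPM in RemoLV, from 138.0 to 213.7 in DOX, from 143.8 to 211.7 in MYO, from 123.4 to 155.5 in Hyper and from 125.2 to 148.1 in Control. The log2 fold change against Control was 0.69 ± 0.16 in RemoLV (adjusted p = 0.00174), 0.42 ± 0.14 in DOX (adjusted p = 0.0246) and 0.40 ± 0.14 in MYO (adjusted p = 0.0313, all edgeR). The values of DOX and MYO overlapped those of Control. The call in DOX was lost when DOX replicate 1 or 3 or Control replicate 2 or 3 was left out, and that in MYO without MYO replicate 2, 4 or 5 or Control replicate 2 or 3 (adjusted p up to 0.1). With table names the fitted log2 fold changes against Control were -0.26 (LAMB1) and -0.34 (LAMB2) in DOX and -0.30 and -0.33 in MYO, none of them called (edgeR).

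LAMC1 (chr9:124283668-124405967, plus strand), the γ chain that most laminin trimers share, was called in none of the 7 comparisons. Its CPM was 475.1, 380.5 and 522.1 in Control, 509.8, 524.7, 492.2, 463.1 and 485.4 in DOX, 420.1, 583.8, 516.7, 506.1 and 444.8 in MYO, 403.4, 415.4 and 444.4 in Hyper and 529.6, 463.4 and 494.2 in RemoLV. The log2 fold changes against Control were 0.11 ± 0.11 for both DOX and MYO, 0.11 ± 0.13 for RemoLV and -0.13 ± 0.13 for Hyper (adjusted p between 0.461 and 0.622, edgeR). Against Hyper, DOX and MYO had 0.23 ± 0.10 (adjusted p = 0.0914, edgeR), which passed under upper-quartile scaling (adjusted p = 0.0496), as did RemoLV against Hyper (adjusted p = 0.0412).

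**Figure D3:**
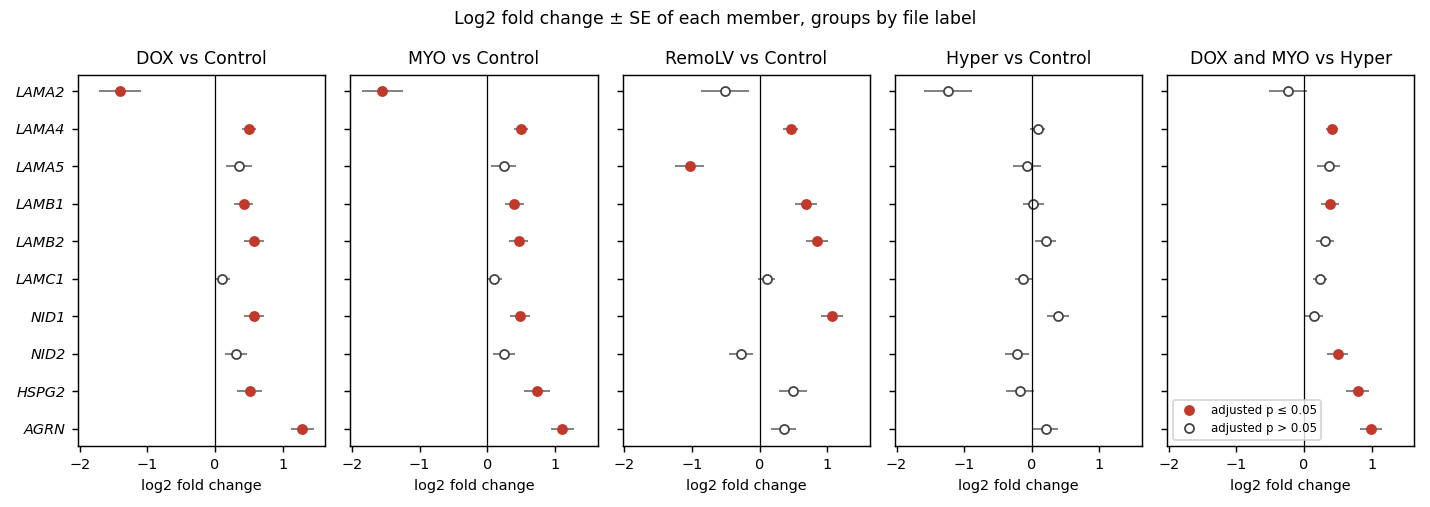
Log2 fold change (horizontal axis) with its SE for the 10 genes in 5 comparisons by file label. Filled points have an adjusted p of at most 0.05 in edgeR: 7 in DOX, 7 in MYO, 5 in RemoLV and none in Hyper against Control, and 5 in DOX and MYO against Hyper.

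Of the nidogens, NID1 was called in RemoLV against Control and NID2 was not. NID1 (chr14:55239327-55346948, plus strand) had 446.8, 478.9 and 436.5 CPM in RemoLV, 207.7, 236.8 and 205.6 in Control and 283.9, 220.3 and 346.3 in Hyper. DOX had 383.0, 333.4, 325.3, 328.2 and 247.0 CPM and MYO 266.8, 339.3, 266.2, 299.5 and 346.5. All RemoLV libraries were above all others, and all DOX and MYO libraries were above the Control libraries. NID1 was 2.10-fold higher in RemoLV (log2 fold change 1.07 ± 0.16, adjusted p = 5.34e-05), 1.49-fold higher in DOX (adjusted p = 0.00473) and 1.40-fold higher in MYO (adjusted p = 0.013, all edgeR) than in Control. The call in MYO was lost without Control replicate 1 (adjusted p = 0.0511) or 3 (adjusted p = 0.0605). With table names NID1 was lower than Control in DOX (-0.47 ± 0.14, adjusted p = 0.0172) and MYO (-0.60 ± 0.14, adjusted p = 0.00365), as well as in RemoLV and Hyper (edgeR). DOX and MYO did not differ detectably from Hyper in NID1 (0.14 ± 0.13, adjusted p = 0.421, edgeR).

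NID2 (chr1:181699098-181773084, minus strand), which binds many of the same partners, had 223.3, 196.9 and 183.5 CPM in RemoLV, 266.5, 169.0 and 295.9 in Control and 211.5, 192.4 and 226.3 in Hyper. DOX had 284.2, 291.6, 364.8, 328.2 and 243.9 CPM and MYO 284.8, 325.8, 236.6, 285.1 and 319.2. All DOX and MYO libraries were above all Hyper libraries, and Control overlapped each of the other groups. NID2 was 1.41-fold higher in DOX and MYO than in Hyper (log2 fold change 0.50 ± 0.15, adjusted p = 0.016, edgeR), a call that was lost without Hyper replicate 1 (adjusted p = 0.0631) or 2 (adjusted p = 0.0856). By file label and with all libraries NID2 was not called against Control in any group. In RemoLV it stood at -0.28 ± 0.18 (adjusted p = 0.213), and at -0.49 (adjusted p = 0.0146, both edgeR) without Control replicate 2, where it was called. With table names it was higher than Control, at 0.63 ± 0.16 in DOX (adjusted p = 0.00645) and 0.49 ± 0.16 in MYO (adjusted p = 0.0273, edgeR).

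Of the proteoglycans, AGRN (chr6:63366017-63398311, plus strand), which binds laminin and dystroglycan and clusters receptors at the neuromuscular junction, showed the largest increase among the 10 genes in DOX and MYO by file label. Its CPM was 256.9, 192.8, 248.8, 184.2 and 216.3 in DOX, 169.1, 188.6, 168.9, 218.6 and 223.9 in MYO, 93.2, 100.5 and 75.4 in Control, 75.9, 113.7 and 121.4 in Hyper and 113.8, 134.5 and 95.8 in RemoLV. The 10 DOX and MYO libraries were above the 9 others, sets that the exchanges of names do not mix. The same 10 libraries carry the Y-chromosome signal, so the treatment and that signal cannot be told apart for AGRN. AGRN was 2.45-fold higher in DOX (log2 fold change 1.29 ± 0.17, adjusted p = 2.49e-05) and 2.16-fold higher in MYO (1.11 ± 0.17, adjusted p = 9.15e-05) than in Control, and 1.99-fold higher in DOX and MYO than in Hyper (0.99 ± 0.16, adjusted p = 0.000144, all edgeR). With table names the log2 fold change was 0.87 ± 0.18 in DOX (adjusted p = 0.00116), 0.82 ± 0.18 in MYO (adjusted p = 0.00184) and 1.00 ± 0.17 against Hyper (adjusted p = 0.000206, edgeR). Without any 1 library it remained between 0.81 and 1.12 against Hyper. In RemoLV it was 0.36 ± 0.19 (adjusted p = 0.121) and in Hyper 0.21 ± 0.19 (adjusted p = 0.566, both edgeR) against Control, of which the former passed with upper-quartile scaling (0.47, adjusted p = 0.0476).

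HSPG2 (chr6:79849691-79958283, minus strand), the large proteoglycan of most basement membranes, had 908.4, 547.0 and 814.8 CPM in Control and 554.1, 583.9 and 881.1 in Hyper. DOX had 1084, 1209, 1163, 1041 and 891.1 CPM, MYO 1148, 1582, 1341, 1292 and 945.5 and RemoLV 1172, 1065 and 968.1. Every MYO and RemoLV library was above all Control libraries, while DOX replicate 5 lay below Control replicate 1. The log2 fold change against Control was 0.74 ± 0.19 in MYO (adjusted p = 0.00469) and 0.51 ± 0.19 in DOX (adjusted p = 0.0362, both edgeR). The latter was lost without DOX replicate 1, 2 or 3 or Control replicate 2 or 3 (adjusted p between 0.0556 and 0.18). HSPG2 was 1.73-fold higher in DOX and MYO than in Hyper (0.79 ± 0.18, adjusted p = 0.00228, edgeR), without overlap and without a loss of the call when any 1 library was left out. In RemoLV it was 0.50 ± 0.21 (adjusted p = 0.0553, edgeR) against Control, which passed with upper-quartile scaling (0.63, adjusted p = 0.0169), with a minimum of 10 counts in every sample (adjusted p = 0.0354) and without Control replicate 1 (adjusted p = 0.0335). The table names gave 0.08 ± 0.19 in DOX (adjusted p = 0.79) and 0.18 ± 0.19 in MYO (adjusted p = 0.519), neither called, and -0.67 ± 0.22 in Hyper (adjusted p = 0.0218, all edgeR) against Control.

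How many of the 10 were called depended on single libraries in several comparisons. Without Control replicate 3, the number higher in MYO than in Control fell from 6 to 3. Without Control replicate 2, the number lower rose from 1 to 3 in RemoLV and from 0 to 1 in Hyper. Without Hyper replicate 1 or 2, the number higher in DOX and MYO than in Hyper fell from 5 to 3, since LAMB1 and NID2 were lost, while AGRN, HSPG2 and LAMA4 were called in every such fit. Without RemoLV replicate 1, the number higher in RemoLV than in Hyper fell from 5 to 3.

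DOX and MYO carry the same drug, free or in liposomes, at the same dose and time. The differences of the 10 genes between them, DOX minus MYO, lay between -0.23 ± 0.16 for HSPG2 and 0.18 ± 0.14 for AGRN on the log2 scale, with adjusted p between 0.787 and 0.997 (edgeR). The interval of 2 SE to each side of the difference ran from -0.10 to 0.47 for AGRN, from -0.55 to 0.09 for HSPG2, from -0.17 to 0.18 for LAMA4 and from -0.41 to 0.70 for LAMA2. A difference of more than 0.2 in LAMA4 or LAMC1 therefore lay outside these intervals, while the intervals of LAMA2 and HSPG2 left room for larger ones.

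**Figure D4:**
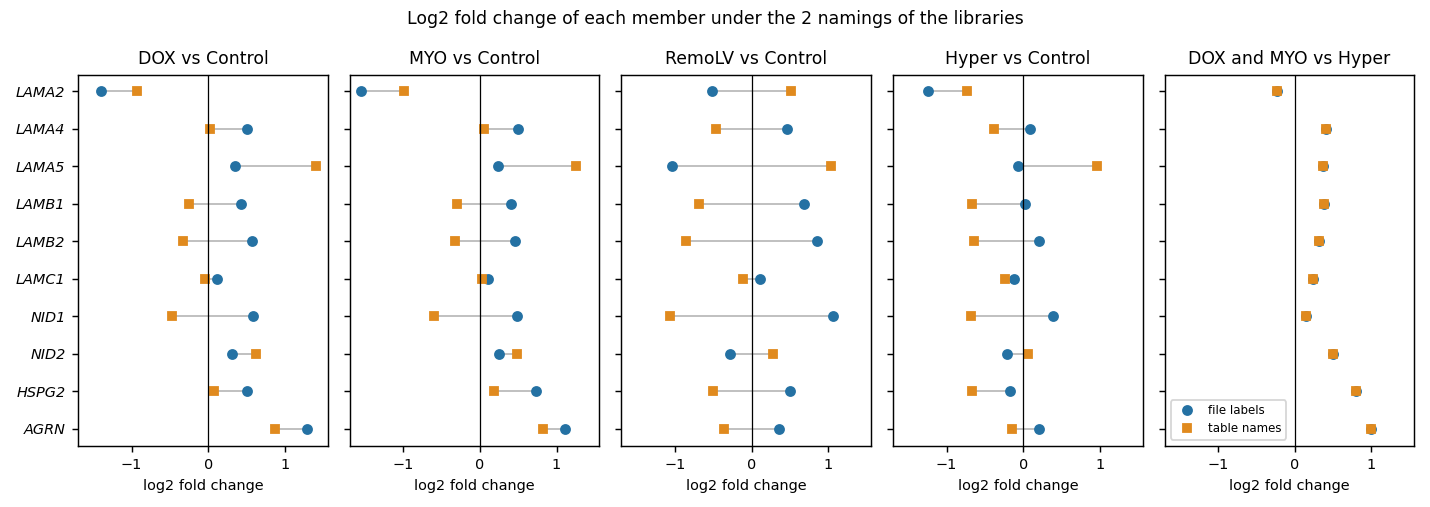
Log2 fold change (horizontal axis) of the 10 genes in 5 comparisons with file labels (circles) and with table names (squares), joined by a line. In DOX and MYO against Control, AGRN and LAMA2 keep their side of 0 and are called under both namings, while LAMB1, LAMB2 and NID1 change sides. In DOX and MYO against Hyper both namings hold the same libraries, and the symbols coincide.

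The ratio of 2 genes within a library does not depend on how the library is scaled. The log2 ratio of LAMA4 to LAMA2 counts was 3.26 ± 0.20 (SD, n = 5) in DOX, 3.46 ± 0.35 (SD, n = 5) in MYO, 2.68 ± 0.08 (SD, n = 3) in Hyper, 2.32 ± 0.10 (SD, n = 3) in RemoLV and 1.55 ± 1.15 (SD, n = 3) in Control. DOX and MYO together were above Hyper without overlap, by 0.69 (exact 2-sided permutation test, p = 0.00699, the smallest these group sizes allow). After adjustment over 28 such tests of 4 ratios, the adjusted p was 0.167, and none of the 28 tests passed. The ratio of NID2 to NID1 was -1.18 ± 0.15 (SD, n = 3) in RemoLV, -0.41 ± 0.21 (SD, n = 3) in Hyper, -0.10 ± 0.23 (SD, n = 5) in DOX, -0.07 ± 0.10 (SD, n = 5) in MYO and 0.13 ± 0.54 (SD, n = 3) in Control. RemoLV was below Hyper and Control without overlap (exact 2-sided permutation test, p = 0.1 in each, the smallest that 3 against 3 allow, adjusted p = 0.255). By table name these lowest libraries are Control, and the difference RemoLV minus Control turned from -1.31 to 1.31, while RemoLV minus Hyper went from -0.77 to 0.54 (adjusted p = 0.525, exact permutation test). The ratio of LAMB2 to LAMB1 overlapped between all groups, with means from 2.03 to 2.24, and that of LAMA5 to LAMA2 by file label was lowest in RemoLV, at 1.27 ± 0.53 (SD, n = 3), and highest in MYO, at 3.68 ± 0.57 (SD, n = 5). Under the table names the libraries at 1.27 are Control and those at 1.98 ± 0.65 (SD, n = 3) are RemoLV.

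**Figure D5:**
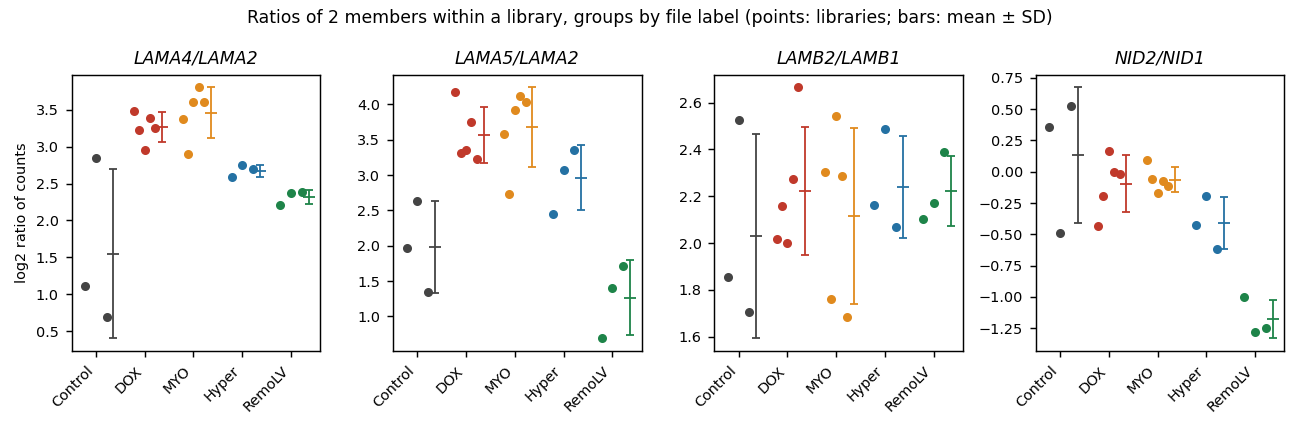
Log2 ratio of the counts of 2 genes in each library (points) by file label, with the mean ± SD beside them. The ratio of LAMA4 to LAMA2 is highest in DOX and MYO (2.90 to 3.81) and that of NID2 to NID1 is lowest in RemoLV (-1.282 to -1.001).

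Across the 19 libraries, log2 CPM of LAMB1 and NID1 had the highest Pearson correlation among pairs of the 10 genes (0.865), followed by LAMC1 and HSPG2 (0.794). The lowest was that of LAMA2 and AGRN (-0.672). NID1 and NID2 had a correlation of -0.03 and LAMA4 and LAMA5 of -0.05. Outside the 10 genes, COL4A5, a chain of type IV collagen, was most similar to LAMA4 (0.922), TRIP10 to LAMA5 (0.952), EFR3B to LAMB2 (0.952), GUSB to LAMB1 (0.927) and EIF4G3 to LAMA2 (0.929). GXYLT2 was most similar to NID1 (0.935), KIAA0930 to NID2 (0.937), RTEL1 to AGRN (0.942), and TRIM66 to both LAMC1 (0.864) and HSPG2 (0.919). The 19 libraries fall into groups, which these values share, so they are given as a description without a test.

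The other genes of the basement membrane were examined by lists, each of which is read against the shares of all genes. By file label these were 21% higher and 21.1% lower in DOX, 20.7% and 21.7% in MYO, 23.1% and 24% in RemoLV and 0% in Hyper against Control, and 15.8% and 16.9% in DOX and MYO against Hyper. The table names gave 15% and 14.6% in DOX, 14.8% and 14.4% in MYO, 24% and 23.2% in RemoLV and 18.7% and 17.2% in Hyper. Medians over all genes lay between 0.01 and 0.03 by file label. Of 5 tested basement membrane collagens, 5 were higher in DOX and in MYO than in Control, 3 in RemoLV and 0 in Hyper, and 4 were higher in DOX and MYO than in Hyper, with none lower in any of these comparisons. Their median log2 fold change was 0.82 in DOX and 0.98 in MYO against Control and 0.67 against Hyper. Under the table names, DOX had 2 higher and 1 lower than Control, MYO 1 higher, RemoLV 3 lower and Hyper 4 lower. The medians against Control were then -0.142 in DOX and -0.097 in MYO. DOX and MYO against Hyper, a comparison of the same libraries, again had 4 higher. COL4A5 stood at 52.9 ± 6.62 CPM (SD, n = 5) in DOX, 48.0 ± 10.9 (SD, n = 5) in MYO, 54.8 ± 1.02 (SD, n = 3) in RemoLV, 19.1 ± 1.43 (SD, n = 3) in Hyper and 14.2 ± 3.70 (SD, n = 3) in Control. Its log2 fold change was 1.89 ± 0.18 in DOX against Control (adjusted p = 8.84e-07) and 1.40 ± 0.17 in DOX and MYO against Hyper (adjusted p = 7.23e-06, both edgeR), whereas the table names gave -0.14 ± 0.17 in DOX and -1.94 ± 0.20 in RemoLV and -1.52 ± 0.20 in Hyper against Control. COL18A1, the source of endostatin, was higher in DOX and MYO than in Hyper by 0.97 ± 0.18 (adjusted p = 0.000494, edgeR). COL4A6 was higher in DOX, MYO and RemoLV than in Control at low levels (4.499 ± 2.31, SD, n = 5, against 1.68 ± 0.72 CPM, SD, n = 3, for DOX), and with table names it was lower than Control in DOX (-1.19 ± 0.32, adjusted p = 0.00934), RemoLV (-2.35 ± 0.39) and Hyper (-1.48 ± 0.37, all edgeR).

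Of 5 other laminin chains tested, 1 was higher in DOX, 2 in MYO and 2 in RemoLV than in Control and none in DOX and MYO against Hyper, and none was lower. For DOX the share of 1 in 5 is close to the 21% of all genes. The table names gave no higher chain, and 2 lower in DOX, MYO and RemoLV and 3 in Hyper. LAMB3 stood at 1.05 ± 0.43 CPM (SD, n = 5) in DOX, 1.08 ± 0.41 (SD, n = 5) in MYO, 2.36 ± 0.84 (SD, n = 3) in RemoLV and 0.36 ± 0.06 (SD, n = 3) in Control. LAMB3 was lower than Control with table names, by -1.13 ± 0.37 in DOX (adjusted p = 0.0296) and -1.18 ± 0.38 in MYO (adjusted p = 0.0242), and in RemoLV (-2.70 ± 0.48) and Hyper (-1.61 ± 0.44, all edgeR). LAMC3 was called in MYO by file label, where its counts ranged from 5 to 72.

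Of 18 tested assembly and associated proteins, 7 were higher in DOX, 10 in MYO and 13 in RemoLV than in Control and 0 in Hyper, and 1 was lower in RemoLV. The numbers higher in DOX, MYO and RemoLV are 38.9%, 55.6% and 72.2%, beside 21%, 20.7% and 23.1% of all genes. The median log2 fold change against Control was 0.50 for DOX, 0.57 for MYO and 1.32 for RemoLV by file label. By table name these medians were -0.64, -0.88 and -1.32. Under the table names, 10 were lower and 2 higher in DOX, 12 lower and 3 higher in MYO, 13 lower and 1 higher in RemoLV and 12 lower and 1 higher in Hyper. Of all genes, 14.6%, 14.4%, 23.2% and 17.2% were lower in the same order. Against Hyper, DOX and MYO had 6 higher and 2 lower. LOXL2, a collagen crosslinking enzyme, was higher there by 1.64 ± 0.23 (adjusted p = 4.33e-05) and FN1 (fibronectin) by 1.04 ± 0.26 (adjusted p = 0.00592, both edgeR). HMCN1 (-0.93 ± 0.25) and SMOC1 (-0.57 ± 0.20) were lower. FRAS1, a protein of the embryonic basement membrane, stood at 167 ± 32.4 CPM (SD, n = 3) in RemoLV, 10.6 ± 5.98 (SD, n = 5) in DOX and 2.90 ± 0.88 (SD, n = 3) in Control, and TINAGL1 at 98.5 ± 18.6 (SD, n = 3) in RemoLV and 289 ± 78.1 (SD, n = 3) in Control. Against Control with table names, FRAS1 was lower in DOX (-4.07 ± 0.44), MYO (-3.93 ± 0.44), RemoLV (-5.86 ± 0.61) and Hyper (-5.12 ± 0.58), and TINAGL1 was higher by 1.73 ± 0.27, 1.94 ± 0.28, 1.55 ± 0.29 and 1.45 ± 0.29 in the same order (all called by edgeR).

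Of 14 tested genes listed as receptors of laminin, agrin and other matrix proteins, 3 were higher and 3 lower in DOX, 2 and 3 in MYO and 3 and 4 in RemoLV than in Control. These numbers are near or below what the shares of all genes give for 14 genes. ITGA6, an integrin chain that binds laminin, was higher in DOX than in Control (0.65 ± 0.18, adjusted p = 0.00783) and in DOX and MYO than in Hyper (0.69 ± 0.17, adjusted p = 0.00421, both edgeR). RPSA, a ribosomal protein that is also known as a laminin receptor, was lower in DOX and MYO than in Hyper, by -0.38 ± 0.08 (adjusted p = 0.00195, edgeR). BCAM, which binds the α5 chain, was higher in DOX (0.57 ± 0.12) and MYO (0.58 ± 0.12) than in Control, and so was DAG1 (dystroglycan), by 0.33 ± 0.10 in DOX (adjusted p = 0.0146) and 0.42 ± 0.10 in MYO (adjusted p = 0.00369, both edgeR). ITGA1 was lower in DOX (-1.14 ± 0.27), MYO (-1.34 ± 0.27) and RemoLV (-1.11 ± 0.31) and ITGA9 in DOX (-0.87 ± 0.26), MYO (-1.26 ± 0.26) and RemoLV (-1.47 ± 0.30) than in Control. LRP4, a receptor of agrin, was higher in RemoLV than in Control (1.79 ± 0.39) and Hyper (2.42 ± 0.40, adjusted p = 0.000159, edgeR). Under the table names the counts were 4 higher and 1 lower in DOX, 2 and 3 in MYO, 4 and 3 in RemoLV and 2 and 3 in Hyper against Control. DOX and MYO against Hyper, where the libraries stay the same, had 1 higher and 1 lower in each naming. ITGA6 remained higher in DOX (0.645 ± 0.18) and BCAM in DOX (0.47 ± 0.12) and MYO (0.42 ± 0.12) under that naming, DAG1, ITGA1 and ITGA9 were not called in DOX or MYO, ITGA1 (1.11 ± 0.30) and ITGA9 (1.47 ± 0.32) were higher in RemoLV, and LRP4 was lower than Control in DOX (-2.33 ± 0.33), MYO (-2.70 ± 0.34), RemoLV (-1.79 ± 0.38) and Hyper (-2.42 ± 0.40) and not called in RemoLV against Hyper (0.63 ± 0.39, adjusted p = 0.395, edgeR).

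Among 11 tested enzymes that glycosylate dystroglycan for laminin binding, 6 were higher and 1 lower in DOX than in Control, 6 and 2 in MYO and 5 and 2 in RemoLV. The numbers higher are 54.5%, 54.5% and 45.5%, beside 21%, 20.7% and 23.1% of all genes. The numbers lower, and the 1 higher and 1 lower in DOX and MYO against Hyper, were below the shares of all genes. POMT1, which starts the sugar chain, was higher in DOX (0.94 ± 0.16), in MYO (1.01 ± 0.16) and in DOX and MYO against Hyper (0.56 ± 0.14, adjusted p = 0.00513, edgeR), the comparison in which DPM1 was lower (-0.51 ± 0.11) and no other enzyme of this list was called. With table names the counts were 1 higher and 1 lower in DOX, 1 and 3 in MYO, 2 and 5 in RemoLV and 0 and 4 in Hyper, and POMT1 was not called in DOX (0.19 ± 0.15) or MYO (0.05 ± 0.15) and was lower in RemoLV (-0.85 ± 0.17) and Hyper (-0.45 ± 0.16).

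Of 17 tested genes of heparan sulfate synthesis and editing, 8 were higher in DOX, 6 in MYO and 5 in RemoLV than in Control and none was lower, with medians of 0.46, 0.57 and 0.27. The numbers higher are 47.1%, 35.3% and 29.4%, beside 21%, 20.7% and 23.1% of all genes. Against Hyper, DOX and MYO had 7 higher and 1 lower. SULF2, a sulfatase that edits heparan sulfate outside the cell, was higher in DOX and MYO than in Hyper (0.80 ± 0.14, adjusted p = 0.00044) and in RemoLV than in Control (2.14 ± 0.18, adjusted p = 7.97e-08, both edgeR). XYLT2, which starts the glycosaminoglycan chain, was higher in DOX (1.14 ± 0.24) and MYO (1.20 ± 0.24) than in Control. Under the table names DOX had 4 higher and 4 lower, MYO 2 and 2, RemoLV 0 and 4 and Hyper 0 and 5 against Control. SULF2 was then lower in DOX (-1.31 ± 0.15), MYO (-1.17 ± 0.15), RemoLV (-2.14 ± 0.17) and Hyper (-2.03 ± 0.17), and XYLT2 was not called in DOX (-0.09 ± 0.22) or MYO (-0.02 ± 0.22) and was lower in RemoLV (-1.23 ± 0.26).

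Of the 8 cell surface proteoglycans, 5 were higher in DOX and 3 in MYO than in Control, and 4 were higher in RemoLV with 1 lower. The numbers higher are 62.5%, 37.5% and 50%, beside 21%, 20.7% and 23.1% of all genes. The table names gave 3 higher and 2 lower in DOX, 2 and 3 in MYO, 1 and 4 in RemoLV and 0 and 4 in Hyper against Control. GPC1 (glypican 1) was higher in DOX and MYO than in Hyper, at 254 ± 27.0 CPM (SD, n = 10) against 143 ± 25.9 (SD, n = 3), with an adjusted p of 0.000197 in edgeR. In this comparison 4 were higher and none lower. SDC2 (syndecan 2) was higher and SDC4 lower in RemoLV than in Control (1.73 ± 0.18 and -0.88 ± 0.27). With table names SDC2 was lower than Control in DOX (-1.21 ± 0.16), MYO (-1.20 ± 0.16), RemoLV (-1.73 ± 0.18) and Hyper (-1.77 ± 0.18) and SDC4 higher in DOX (0.85 ± 0.26) and RemoLV (0.88 ± 0.28), while GPC1 was higher in DOX and MYO than in Control under both namings.

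Of 14 tested proteases that can cleave these proteins, 4 were higher and 1 lower in DOX than in Control, 4 and 2 in MYO, 4 and 2 in RemoLV, and 5 and 1 in DOX and MYO against Hyper. The 5 higher against Hyper are 35.7% of the 14, beside 15.8% of all genes, and the 4 higher in DOX are 28.6%, beside 21%. The 4 in MYO and the 4 in RemoLV are also 28.6%, beside 20.7% and 23.1%. The numbers lower are below the shares of all genes. MMP14, a membrane-bound metalloproteinase, was higher in DOX (1.24 ± 0.19), in MYO (1.17 ± 0.19) and in DOX and MYO against Hyper (1.15 ± 0.18, adjusted p = 8.86e-05, edgeR), and ADAMTS5 was lower in DOX (-0.71 ± 0.20) and against Hyper (-1.03 ± 0.17). MMP2, a gelatinase that cleaves type IV collagen, stood at 207 ± 30.8 CPM (SD, n = 5) in MYO and 300 ± 45.7 (SD, n = 3) in RemoLV against 83.3 ± 9.04 (SD, n = 3) in Control. With table names MMP2 was lower than Control in DOX (-0.88 ± 0.16), MYO (-0.54 ± 0.16, adjusted p = 0.0136, edgeR), RemoLV (-1.85 ± 0.18) and Hyper (-1.52 ± 0.18), and neither MMP14 nor ADAMTS5 was called in DOX or MYO, while MMP14 was lower in RemoLV (-0.95 ± 0.20) and Hyper (-0.90 ± 0.20) and ADAMTS5 higher in Hyper (0.98 ± 0.25). The counts against Control were then 3 higher and 1 lower in DOX, 1 and 1 in MYO, 2 and 4 in RemoLV and 1 and 4 in Hyper.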

How the data were processed

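The authors isolated poly(A) RNA, prepared stranded libraries, used STAR for alignment to Sscrofa11.1 and HTSeq 0.11.1 (union mode, reverse strand) for counts on Ensembl gene models. The deposited files hold raw counts, 1 file per pig. A further deposited table lists 14744 genes, with expression that the authors transformed to a log2-like scale (used here only to match names). Its fold change and adjusted p columns hold the authors' comparisons with Control and were not used.

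Counts were scaled by TMM, filtered by filterByExpr and compared in 1 model of 5 groups with the quasi-likelihood test of edgeR 4.0.16 in R 4.3.3, with Benjamini-Hochberg adjustment over 13552 genes and a threshold of 0.05 without a fold threshold. SE are those of the fitted log2 fold changes. Chain ratios used counts plus 0.5 and exact permutation tests (scipy 1.17.1), and correlations used log2 CPM with a prior count of 2. Alternatives were DESeq2 1.42.0, other scalings, other filters, fewer libraries, a replicate block and the table names. The fit was tested on simulated data. Positions and promoters came from the RefSeq annotation of Sscrofa11.1, and some items are not reported here.

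The named genes were the 10 members and, per list and comparison, up to 2 called genes with the largest positive and 2 with the largest negative log2 fold change, of which a selection is given, and the gene most similar to each member. The members and lists were chosen with earlier results of these data known. Depth was 9527710 to 20370209 counts per library. The lowest count of a member in a library was 219 (LAMA2). Each library is labelled as a separate pig. Deviations of same-numbered Control and DOX libraries from their group means correlated at 0.242, 0.158 and 0.117. Those of all 32 same-numbered pairs of libraries ranged from -0.246 to 0.242. The labels name no pairs either, so the main model has no block. A replicate block, tried as an alternative, changed no call of the 10 genes between Control and DOX.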

Additional observations from a re-analysis of the deposited data

Results flagged for a closer look

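LAMA2 in MYO replicate 2 stood at 43.23 CPM, apart from the other MYO libraries, which ranged from 18.7 to 24.48 CPM. It was the 1 outlying value among 28 groups of values examined (CPM of the 10 genes and 4 log2 ratios in DOX and MYO, the groups with 5 libraries), and chance alone gives such a value in about 5% of groups.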

How the results depend on the processing

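The naming of the libraries changed more values than any other setting. With table names, the number of the 10 genes called higher and lower against Control was 3 and 2 in DOX, 3 and 2 in MYO, 1 and 4 in RemoLV and 1 and 5 in Hyper, and 0 and 0 in RemoLV against Hyper (edgeR, with NID1 lower and LAMA2 higher at an unadjusted p under 0.05). The log2 fold changes of the called genes that reversed with table names were, in DOX against Control, -0.26 for LAMB1, -0.34 for LAMB2 and -0.47 for NID1, and in MYO -0.30, -0.33 and -0.60 in the same order. In RemoLV against Control they were -0.46 for LAMA4, 1.03 for LAMA5, -0.69 for LAMB1, -0.85 for LAMB2 and -1.07 for NID1, in Hyper against Control -0.38, 0.96, -0.66, -0.65 and -0.68, and in RemoLV against Hyper -0.085, 0.071, -0.024, -0.204 and -0.388 in the same order of genes. DESeq2 called 1 gene of the 10 lower (LAMA2) in Hyper than in Control, beside 207 of 19275 genes.

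Leaving out each library in turn, the number higher ranged from 4 to 6 in DOX, 3 to 6 in MYO and 4 to 5 in RemoLV against Control, from 3 to 6 in DOX and MYO against Hyper and from 3 to 5 in RemoLV against Hyper. The number lower ranged from 1 to 3 in RemoLV and from 0 to 1 in Hyper against Control. Of the 70 log2 fold changes, RLE scaling and no filter changed no call, upper-quartile scaling added 4, a minimum of 10 counts in every sample added 1 and fits of the compared groups alone added 3 and lost 1. No ratio passed its threshold under any setting tried. The cause of these changes was not tested.

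A replicate block kept 6 higher and 1 lower in DOX, gave 5 higher in MYO and 4 in DOX and MYO against Hyper (LAMB1 was lost in both), and changed no other call of the 10 genes. The correlations of all 32 same-numbered pairs ranged from -0.246 to 0.242 and 4 were over 0.1, of which 3 are those of Control and DOX. Values of this size on both sides of 0 do not show that the replicate numbers pair the samples.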
